A study of Mus musculus with 5 samples.

Results

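The nuclear respiratory chain genes are the 88 genes, of the 27998 present in all 5 count tables, whose symbols begin with Nduf, Uqcr, Cox4, Cox5, Cox6, Cox7, Cox8 or Atp5. They comprise 36 subunits of complex I (7 core and 29 accessory), 8 of complex III, 20 of complex IV, 15 of complex V and 9 assembly factors or associated proteins. The study profiled single cells of mouse spinal cord sorted for green fluorescent protein (GFP), from Col1a1GFP reporter mice on a C57/BL6 background, in which GFP marks cells that use the promoter of the collagen gene Col1a1. Healthy 1, 2 and 3 came from healthy mice and EAE 1 and EAE 2 from mice with experimental autoimmune encephalomyelitis (EAE), an immune-mediated inflammatory disease of the central nervous system. All 5 libraries carried the same reporter and passed the same sort; age, disease day and the number of animals per library could not be learned from the sources used here. No label says that libraries of a group came from separate animals, so every p-value measures the spread between these libraries, which may be technical.

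The respiratory chain of the inner mitochondrial membrane passes electrons from NADH and succinate to oxygen and pumps protons on the way. Complex I takes electrons from NADH, complex III hands them to cytochrome c, complex IV reduces oxygen, and complex V, the ATP synthase, makes ATP from the returning protons. Most subunits are nuclear genes that every cell uses, while several complex IV subunits exist as alternative isoforms with restricted expression. Known examples are the mural or hypoxia-linked isoforms Ndufa4l2 and Cox4i2, the heart and muscle isoforms Cox6a2, Cox7a1 and Cox8b, and the testis isoform Cox6b2. Ndufa4, named after complex I, is now regarded as a subunit of complex IV, and Ndufa4l2 is its paralog. Atp5g1, Atp5g2 and Atp5g3 encode the same mature c subunit of the ATP synthase ring from separate genes.

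In the GRCm38 annotation Ndufa4 lies at chr6:11900292-11907497, minus strand, and Ndufa4l2 at chr10:127514967-127517154, plus strand. Cox4i1 lies at chr8:120668222-120674207, plus strand, and Cox4i2 at chr2:152754173-152765037, plus strand. Cox7a1 lies at chr7:30184144-30186078, plus strand, and Cox6b2 at chr7:4751792-4753094, minus strand. Atp5g1 lies at chr11:96068852-96075670, minus strand, and Atp5g2 at chr15:102662864-102672352, minus strand. Of the 88 members, 73 had an entry among the RefSeq promoter windows (GRCm38.p6, 300 bases each, ending 50 bases past the transcription start); Ndufa4l2, Cox4i1 and Cox4i2 were among the 15 without one. A motif of nuclear respiratory factor NRF1, the letters GCGCA and GCGC with any 1 base between them, stood on either strand of 17 of the 73 windows (23.3%) and of 5.19% of all 27025 windows. The ETS motif CCGGAAG stood in 15 (20.5%) against 9.93% of all, and ACGTG, the core of the hypoxia response element, in 19 (26.0%) against 21.8%. These are matches of letters, not shown to be sites, and ACGTG can overlap itself on the opposite strand as CACGTG.

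The 4 windows below belong to members on which the comparisons turn: Ndufa4, low in pericyte-gated cells, Cox7a1, low in EAE, and Atp5g1 and Atp5g2, paralogs for the same c subunit that passed in different comparisons. Capitals mark the NRF1 letters or ACGTG on either strand; Ndufa4 held none of the 3 motifs in this window.
Ndufa4 (chr6:11907401-11907700, minus strand): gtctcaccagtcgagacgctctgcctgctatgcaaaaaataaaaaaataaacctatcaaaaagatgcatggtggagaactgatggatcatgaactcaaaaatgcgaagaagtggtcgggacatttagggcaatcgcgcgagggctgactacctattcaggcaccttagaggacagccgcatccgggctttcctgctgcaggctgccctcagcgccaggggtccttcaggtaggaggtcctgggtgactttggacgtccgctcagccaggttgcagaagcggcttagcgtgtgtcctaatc
Cox7a1 (chr7:30183921-30184220, plus strand): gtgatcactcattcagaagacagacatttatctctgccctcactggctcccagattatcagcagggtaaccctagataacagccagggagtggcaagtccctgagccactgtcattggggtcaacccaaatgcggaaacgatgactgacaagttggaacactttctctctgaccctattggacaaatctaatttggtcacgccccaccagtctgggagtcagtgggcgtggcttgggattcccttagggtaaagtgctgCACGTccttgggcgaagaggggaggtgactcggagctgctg
Atp5g1 (chr11:96075582-96075881, minus strand): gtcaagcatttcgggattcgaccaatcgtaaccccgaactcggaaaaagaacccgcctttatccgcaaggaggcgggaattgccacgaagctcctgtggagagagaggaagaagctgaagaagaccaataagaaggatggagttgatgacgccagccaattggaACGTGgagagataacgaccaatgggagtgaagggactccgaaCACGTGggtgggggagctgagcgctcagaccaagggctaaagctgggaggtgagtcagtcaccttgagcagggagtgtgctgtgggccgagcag
Atp5g2 (chr15:102670998-102671297, minus strand): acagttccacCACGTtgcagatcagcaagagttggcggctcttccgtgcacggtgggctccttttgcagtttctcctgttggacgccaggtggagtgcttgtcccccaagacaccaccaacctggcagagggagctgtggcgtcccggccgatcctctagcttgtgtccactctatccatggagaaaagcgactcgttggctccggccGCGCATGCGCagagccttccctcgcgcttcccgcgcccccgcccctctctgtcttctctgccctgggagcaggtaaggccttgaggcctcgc
Only the Atp5g2 window of these 4 held the NRF1 letters, which read the same on both strands there. That window lies wholly inside the gene span given above, so it belongs to an internal start, while the other windows cover the 5′ ends of their genes.

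After each barcode shared between Healthy 1, Healthy 2 and EAE 1 was kept only where its UMI (unique molecular identifier, a tag that counts each captured molecule once) total was highest, and after filters, 4678 of 7205 barcodes remained: 724 (Healthy 1), 429 (Healthy 2), 374 (Healthy 3), 1913 (EAE 1) and 1238 (EAE 2). Healthy 1 shared 1239 barcodes with EAE 1 and 996 with Healthy 2, Healthy 2 shared 683 with EAE 1, and no other pair shared more than 5; the copies removed were 67.6% of the barcodes of Healthy 1 and 61.2% of those of Healthy 2, so each comparison was also run on the tables as deposited. Cells were gated by UMIs of marker genes that include no member: 4160 were fibroblast-gated (662, 372 and 352 Healthy, 1633 and 1141 EAE), 126 smooth muscle-gated and 61 pericyte-gated. Col1a1, the reporter's gene, stood at 1522 to 3295 CPM in fibroblast-gated Healthy sums and at 6938 and 7464 in EAE, against 68.6 to 763 in pericyte-gated sums of 5 or more cells. Median UMIs per fibroblast-gated cell were 1221.5 in Healthy 1 and 3129.5 to 5194 in the others.

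Levels are given as CPM, the UMIs of a gene in all cells of a class in a library per 1000000 UMIs of those cells; a molecule gives 1 UMI at its 3′ end whatever its length. Doublets were not called by a tool, and cells with markers of 2 classes could stay ungated (1 to 47 cells a library). Differences are log2 values from edgeR's quasi-likelihood test on such sums, with p-values adjusted over all genes tested in that comparison (Benjamini-Hochberg) and called at 0.05. The most abundant members over all kept cells were Cox6c (26147 UMIs), Cox4i1 (21961) and Cox8a (20818), all subunits of complex IV found in most tissues. At the other end, the testis-linked isoforms Cox7b2 and Cox8c had 0 UMIs, Cox8b had 9 and Cox6a2 had 29. Members of complex I core ranged from Ndufs1 (574 UMIs) to Ndufs7 (3313), and the 9 assembly or associated genes from Atp5s (159) to Ndufaf2 (912).

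The 88 members made up close to the same share of all UMIs in fibroblast-gated cells of every Healthy library, 1.94%, 1.99% and 2.04%, and 2.37% in EAE 1 and 2.12% in EAE 2. Smooth muscle-gated cells gave 2.65%, 2.86% and 2.45% in Healthy and 3.15% and 3.21% in EAE, above the fibroblast-gated cells of the same library in 5 of 5 libraries. Pericyte-gated cells lay at 2.31% and 2.78% in EAE 1 and EAE 2, myeloid-gated cells of EAE 1 at 2.88%, and lymphocyte-gated cells at 2.61% and 2.37%. The 46 melanocyte-gated cells, all in EAE 1, stood apart at 5.11%. The Healthy and EAE shares of fibroblast-gated cells did not overlap, yet among cells of 2000 to 8000 UMIs the shares were 2.01%, 2.01% and 2.03% in Healthy, 2.32% in EAE 1 and 1.96% in EAE 2, so the EAE 2 share then lay below all Healthy libraries. Within fibroblast-gated cells, complex V took 0.487%, 0.478% and 0.498% in Healthy and 0.648% and 0.569% in EAE, while complex I took 0.642%, 0.688% and 0.654% in Healthy and 0.735% and 0.644% in EAE, which overlap. On the tables as deposited the complex V shares were 0.570%, 0.556% and 0.498% in Healthy and 0.648% and 0.569% in EAE. Those of all members were then 2.18%, 2.17% and 2.04% in Healthy and 2.37% and 2.12% in EAE. Both sets of deposited shares overlapped between the groups.

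**Figure D1:**
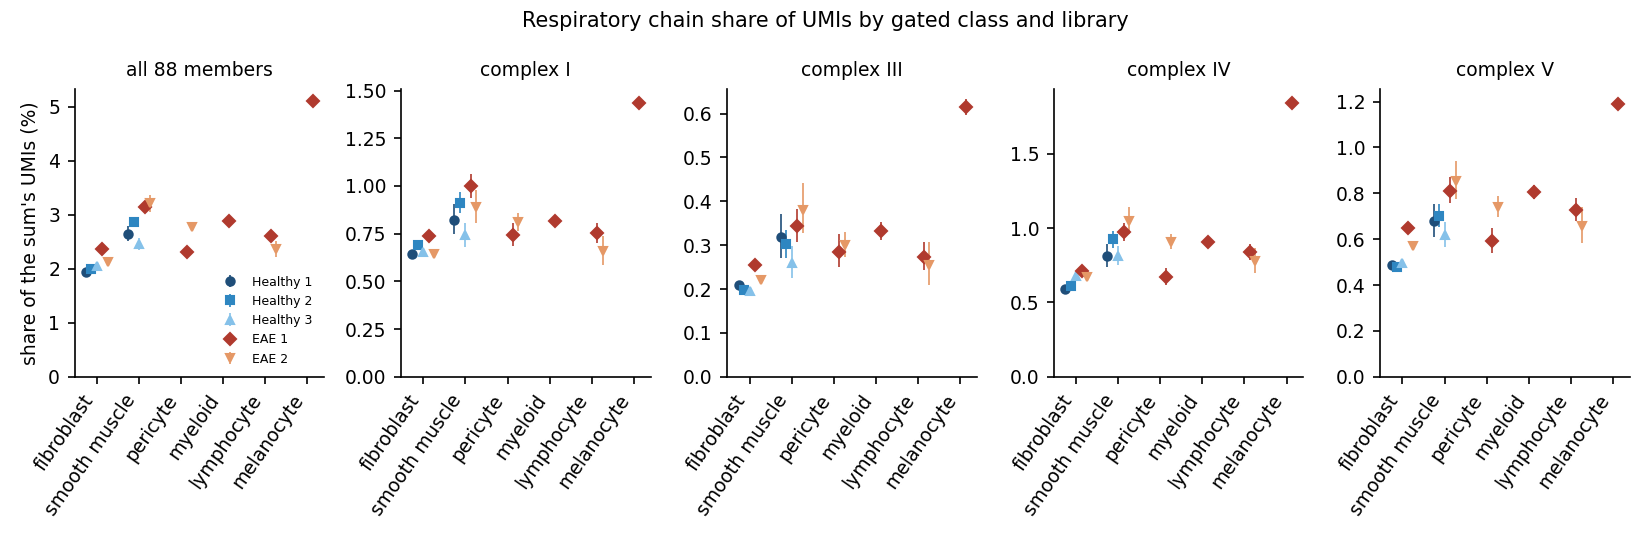
Share of all UMIs of a class in a library (y axis, %) held by all 88 members and by the members of complexes I, III, IV and V, for fibroblast-, smooth muscle-, pericyte-, myeloid-, lymphocyte- and melanocyte-gated cells (x axis). Points are libraries with at least 10 cells of the class, bars are 95% binomial intervals that cover counting error only, and the melanocyte-gated point at 5.11% lies above all others in the first panel.

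The gated classes differed in which isoforms of complex IV they expressed. In pericyte-gated cells Ndufa4l2 was the more abundant paralog and made up 90.9% (50 of 55 UMIs, interval 80.0 to 97.0%) of the pair in EAE 1 and 96.8% (153 of 158 UMIs, interval 92.8 to 99.0%) in EAE 2; intervals are exact (Clopper-Pearson, 95%) and cover counting error only. In smooth muscle-gated cells the share was 41.7%, 29.5% and 30.3% in Healthy and 33.3% and 60.0% in EAE, from 24 to 88 UMIs of the pair. Fibroblast-gated cells gave 9.51%, 7.37% and 9.37% in Healthy and 23.7% and 23.6% in EAE. In immune and pigment cells the paralog was rare: 0.680% (1 of 147 UMIs, interval 0.0172 to 3.73%) in myeloid-gated, 0% (0 of 57 UMIs, interval 0 to 6.27%) in lymphocyte-gated and 0.405% (6 of 1483 UMIs, interval 0.149 to 0.879%) in melanocyte-gated cells of EAE 1. Cox4i2 as a share of Cox4i1 plus Cox4i2 was 13.8% and 22.5% in pericyte-gated cells of EAE 1 and EAE 2, from 3.85% to 14.5% in smooth muscle-gated cells, and from 0.112% to 0.561% in fibroblast-gated cells.

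**Figure D2:**
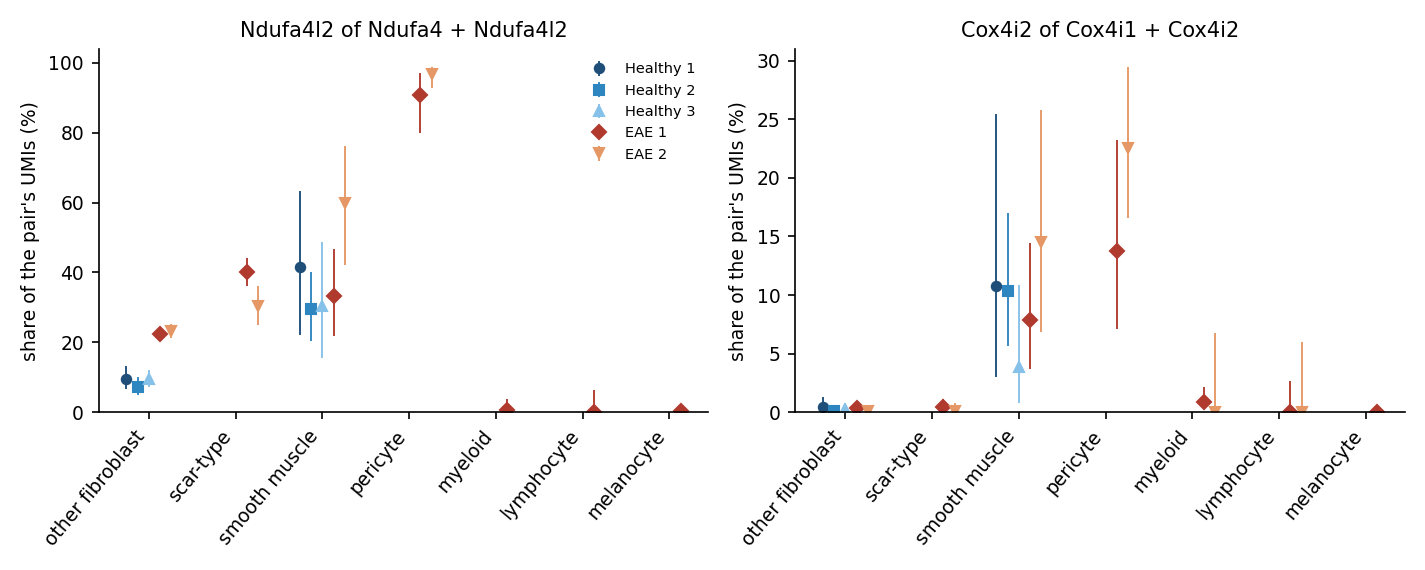
Ndufa4l2 as a share of Ndufa4 plus Ndufa4l2 (left) and Cox4i2 as a share of Cox4i1 plus Cox4i2 (right), in % of the pair's UMIs (y axis), by gated class or fibroblast subset (x axis); points are libraries with at least 20 UMIs of the pair and bars are exact 95% binomial intervals. In the left panel the pericyte-gated points at 90.9% and 96.8% lie above every other class, and the EAE points of the other fibroblasts lie above the Healthy ones.

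Pericytes wrap the endothelium of capillaries; the comparison of pericyte-gated with fibroblast-gated cells was made inside each library. Ndufa4 was 61.5 and 34.8 CPM in pericyte-gated cells of EAE 1 and EAE 2, and 376 and 285 in fibroblast-gated cells. Ndufa4l2 was 615 and 1066 against 117 and 88.2, and Cox4i2 was 135 and 272 against 3.88 and 1.18. Both EAE libraries thus had low Ndufa4 and high Ndufa4l2 and Cox4i2 in pericyte-gated cells, with no overlap between classes. Of 4947 genes tested, 4.39% passed higher and 5.54% lower; of the 77 members that passed the low-count filter, 2 passed higher and 1 lower. They were Cox4i2 (5.91 ± 0.69 (SE), adjusted p = 1.77e-06), Ndufa4l2 (2.91 ± 0.36 (SE), adjusted p = 3.01e-06) and Ndufa4 (-3.08 ± 0.43 (SE), adjusted p = 2.17e-05). All 3 calls held under every alternative setting that kept both EAE libraries. Over all 14 alternatives Ndufa4 lay between -3.49 and -2.81 and Ndufa4l2 between 2.43 and 3.42. Leaving out a Healthy library, or asking for more cells a sum, kept both pericyte-gated sums and so tested this contrast little. Leaving out EAE 1 or EAE 2 left 1 pericyte-gated sum, which gives a size of difference only. No member of complex I (0 of 36), complex III (0 of 8) or complex V (0 of 15) passed, and the median over the members tested was -0.02 against -0.07 over all genes. On simulated data this contrast recovered 15.6% of genes changed by 1 on the log2 scale and 58.75% of those changed by 2. The absence of calls therefore cannot show that these members were alike in the 2 classes. Only EAE 1 and EAE 2 had the 10 pericyte-gated cells (22 and 25) needed for a sum. The fit estimated each gene's spread from the sums of all classes together, smooth muscle-gated ones included. The p-values of this contrast therefore rest mostly on spread outside the pericyte-gated sums. The 7 and 5 pericyte-gated cells of Healthy 2 and Healthy 3, outside the test, gave 47.8 and 137 CPM for Ndufa4 and 813 and 411 for Ndufa4l2, the same order as in EAE. How reads shared with pseudogene copies of these genes were counted is not stated in those sources.

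Smooth muscle cells form the contractile wall of arteries and veins, and this class was tested in all 5 libraries, with 10 to 37 cells each. The isoforms Cox4i2 and Ndufa4l2 were far higher there than in fibroblast-gated cells; 9 common subunits also passed, by less than 1 on the log2 scale. Cox4i2 was 77.9, 115 and 39.2 across the Healthy libraries, 89.3 in EAE 1 and 190.5 in EAE 2 (CPM), while fibroblast-gated sums held 4, 1, 3, 33 and 8 UMIs in all, or 0.844 to 4.12 CPM. Ndufa4l2 was 195, 229.6 and 131 across the Healthy libraries, 199 in EAE 1 and 444 in EAE 2. Every smooth muscle-gated sum lay above the fibroblast-gated sum of its own library for both genes. The pericyte marker Rgs5 was 1052, 1801 and 2418 CPM in the smooth muscle-gated sums of Healthy and 516 and 2455 in those of EAE. It was 6905 and 10467 in the pericyte-gated sums of EAE 1 and EAE 2. A part of pericytes in the smooth muscle gate was not tested. Of all genes 12.9% passed higher and 16.7% lower; of 77 members, 11 passed higher, a share near that of all genes, and 1 lower, with a median of 0.39 against -0.13 over all genes. Cox4i2 (5.23 ± 0.59 (SE), adjusted p = 1.61e-07) and Ndufa4l2 (1.89 ± 0.30 (SE), adjusted p = 2.04e-05) held under all 14 alternatives. Complex IV gave 5 more calls, the common subunits Cox7a2 (0.74 ± 0.21 (SE)), Cox7c (0.58 ± 0.20 (SE)), Cox5a (0.68 ± 0.25 (SE)), Cox5b (0.64 ± 0.22 (SE)) and Cox8a (0.63 ± 0.21 (SE)), with adjusted p from 0.00914 to 0.0431. Complex I gave 3, among them the accessory subunits Ndufb7 (0.78 ± 0.24 (SE)) and Ndufab1 (0.76 ± 0.24 (SE)), the last also the acyl carrier protein of mitochondria. Complex V gave Atp5b, the catalytic beta subunit (0.70 ± 0.20 (SE), adjusted p = 0.0104), and complex III none of 8, although all 8 estimates were above 0. Cox6b2 was the member that passed lower (-2.33 ± 0.63 (SE), adjusted p = 0.00567), with 0, 2, 1, 1 and 0 UMIs in the smooth muscle-gated sums of Healthy 1 to 3, EAE 1 and EAE 2; fibroblast-gated sums gave 45.3, 54.0 and 30.9 (Healthy) against 49.8 and 38.0 (EAE) CPM. A fitted value at so few UMIs depends on the prior count.

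The modest differences depended on the cells and the scaling: among cells with at most 5% mitochondrial UMIs 2 members passed higher, with library totals in place of edgeR's normalization 26 did, and with any 1 library left out 5 to 7 did. Median mitochondrial UMIs per smooth muscle-gated cell were 6.67%, 4.44% and 5.39% in Healthy and 6.06% and 2.1% in EAE, against 2.07% to 3.08% per fibroblast-gated cell, and their part in these 9 differences was not tested. In pericyte-gated against smooth muscle-gated cells, a comparison that shares the same sums, 2.34% of genes passed higher and 2.51% lower; 0 members passed higher and 1 lower, Ndufa4 (-3.01 ± 0.45 (SE), adjusted p = 0.000241). No other member passed there, Ndufa4l2 included (1.02 ± 0.38 (SE), adjusted p = 0.145).

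**Figure D3:**
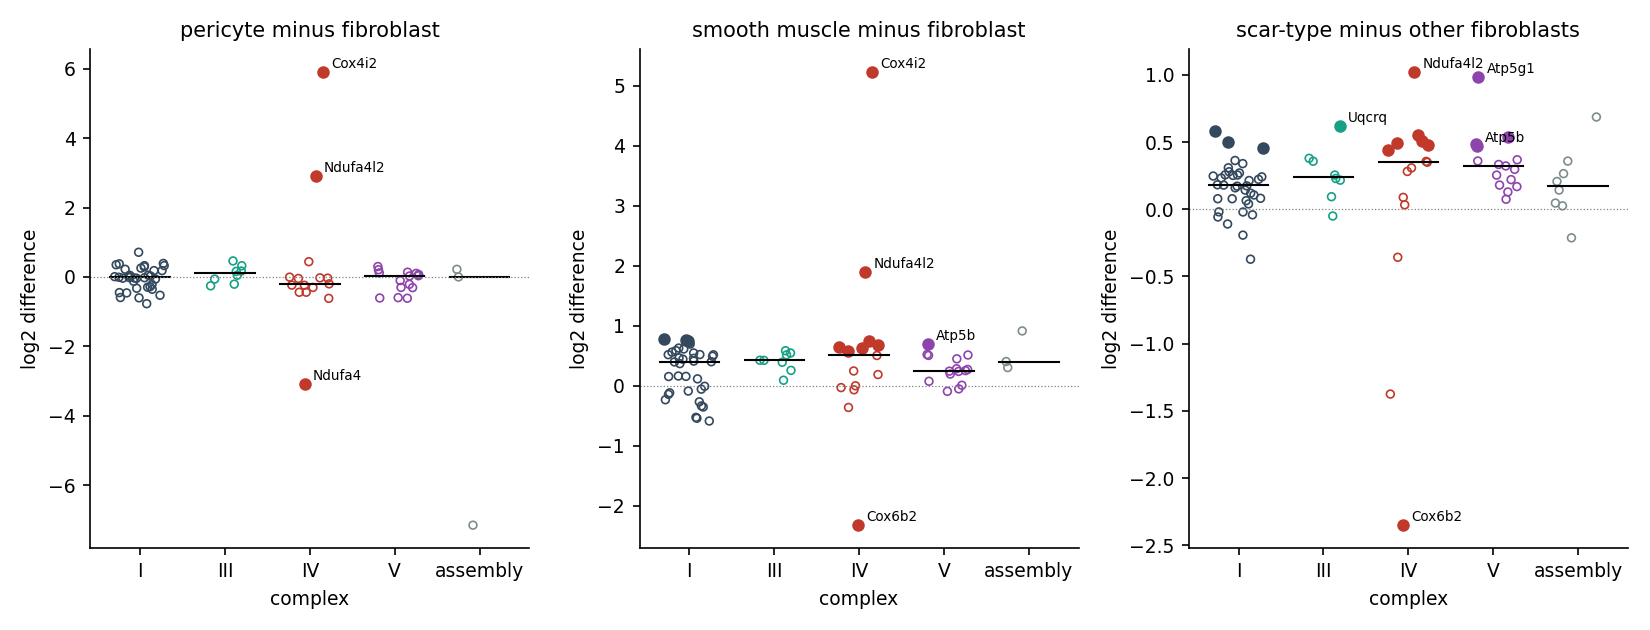
Log2 difference (y axis) of each tested member by complex (x axis), for pericyte-gated minus fibroblast-gated cells, smooth muscle-gated minus fibroblast-gated cells, and scar-type minus other fibroblasts in EAE; filled points passed an adjusted p of 0.05, open points did not, and black lines are medians. In the left panel the 3 filled points, Cox4i2 at 5.91, Ndufa4l2 at 2.91 and Ndufa4 at -3.08, all belong to complex IV. The open point at -7.15 is Ndufaf6, which had 0 UMIs in both pericyte-gated sums and was chosen after its values were seen.

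Turning to disease, the comparison of EAE with Healthy in fibroblast-gated cells was made over all members. Of 83 members that passed the low-count filter, 4 passed higher and 3 lower, where 10.3% of the 9944 genes tested passed higher and 10.7% lower, and the members' median was 0.03 against 0.00 over all genes. The calls were single subunits or isoforms, Ndufa4l2, Atp5g2, Uqcrq and Cox5a higher and Cox7a1, Atp5s and Cox6c lower. DESeq2 called 3 higher and 2 lower. On simulated data the edgeR fit recovered 33.3% of genes changed by 1 on the log2 scale and 97% of those changed by 2. Members without a call may thus still differ. For 25 members both EAE values were above every Healthy value (28.0% of all genes did so) and for 10 below (18.4% of all genes). The libraries were taken as 2 batches, since the sample descriptions of Healthy 3 and EAE 2 each hold a library code with the same ending and those of the others are empty, and batch was a term of the fit. The sign of EAE minus Healthy was the same in both batches for 60 of 83 members.

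**Figure D4:**
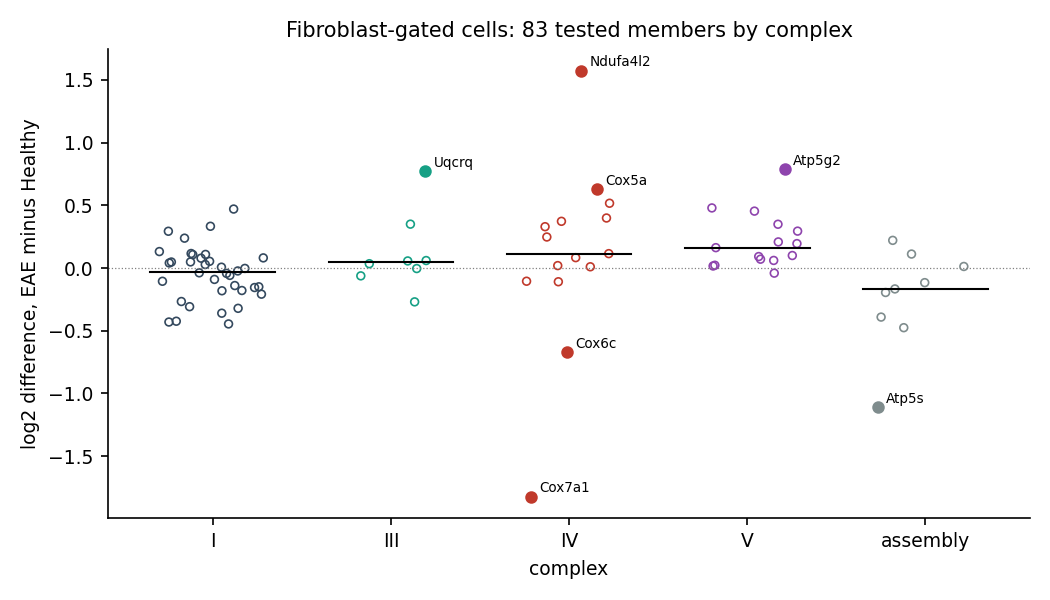
Log2 difference EAE minus Healthy (y axis) of the 83 tested members in fibroblast-gated cells, by complex (x axis); filled, named points passed an adjusted p of 0.05, open points did not, and black lines are medians per complex. The 7 filled points range from Cox7a1 at -1.82 to Ndufa4l2 at 1.57, and complex I has no filled point.

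In complex I, 0 of 36 subunits passed and the median was -0.03; 16 estimates were above 0, and 22 with library totals, so the complex as a whole had no direction that held under both scalings. Differences ranged from -0.45 for Ndufb4 to 0.47 for Ndufb5, both accessory subunits. The core subunit Ndufs1, which carries iron-sulphur clusters, was 36.0, 32.9 and 21.5 across the Healthy libraries, 27.5 in EAE 1 and 19.1 in EAE 2 (-0.36 ± 0.24 (SE), adjusted p = 0.320). Ndufv1, which binds NADH, was 66.9, 68.4 and 67.2 across the Healthy libraries, 62.9 in EAE 1 and 68.2 in EAE 2 (-0.15 ± 0.21 (SE), adjusted p = 0.673). For both genes the Healthy and EAE ranges overlapped. The EAE values lay above all Healthy values for 5 of 36 subunits (28.0% of all genes did so) and below them for 6 (18.4% of all genes), without a call. Ndufs7, a core subunit, was 173, 184 and 186 across the Healthy libraries, 151 in EAE 1 and 136 in EAE 2 (-0.43 ± 0.20 (SE), adjusted p = 0.149). The accessory Ndufb4 was 214, 274 and 224 across the Healthy libraries, 195 in EAE 1 and 172 in EAE 2 (-0.45 ± 0.21 (SE), adjusted p = 0.156). Of the 7 core subunits 6 had estimates below 0, the lowest Ndufs7 at -0.43, and none passed.

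In complex III, 1 of 8 subunits passed, Uqcrq, a small subunit of the complex. Uqcrq was 254, 200.1 and 242 across the Healthy libraries, 478 in EAE 1 and 366 in EAE 2, with no overlap (0.78 ± 0.21 (SE), adjusted p = 0.0179). The core proteins Uqcrc1 (-0.06 ± 0.20 (SE)) and Uqcrc2 (0.06 ± 0.20 (SE)) and the Rieske iron-sulphur protein Uqcrfs1 (0.06 ± 0.21 (SE)) did not pass. Uqcrfs1 was 60.7, 76.8 and 84.0 across the Healthy libraries, 81.6 in EAE 1 and 86.4 in EAE 2, in which the EAE values fell within or just above the Healthy range. The Uqcrq call was lost under 7 of 18 alternatives, with the barcodes as deposited (0.41, adjusted p = 0.111) and without Healthy 3, EAE 1 or EAE 2 among them.

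Complex IV held 4 of the 7 calls, 2 in each direction. Ndufa4l2 was 34.0, 27.9 and 34.9 across the Healthy libraries, 117 in EAE 1 and 88.2 in EAE 2 (CPM), so both EAE libraries exceeded every Healthy library (1.57 ± 0.23 (SE), adjusted p = 0.000368). Its paralog Ndufa4 was 323, 350.4 and 338 across the Healthy libraries, 376 in EAE 1 and 285 in EAE 2, and the groups overlapped (-0.11 ± 0.20 (SE), adjusted p = 0.758). The Ndufa4l2 difference was 1.89 within the batch of Healthy 1, Healthy 2 and EAE 1 and 1.31 within that of Healthy 3 and EAE 2. In the tables as deposited Ndufa4l2 was 67.1 and 55.5 in Healthy 1 and Healthy 2, and the difference was smaller but passed (1.00, adjusted p = 0.00547). The call was lost without EAE 1 (1.26, adjusted p = 0.0832), a fit in which the lone EAE library is assumed to vary like the others. In cells thinned to 1000 UMIs each, Ndufa4l2 was found in 3.77%, 3.69% and 3.50% of 398, 352 and 343 fibroblast-gated Healthy cells and in 9.49% of 1633 and 7.50% of 1094 EAE cells, with 264, 20, 9, 0 and 47 shallower cells left out. Without thinning these shares were 4.08%, 7.80%, 10.5%, 32.3% and 29.4%. Of the myeloid-gated cells of EAE 1 (median 3044 UMIs, against 4665 in fibroblast-gated cells) 1 of 87 (1.15%) held an Ndufa4l2 UMI without thinning and 0 of 87 after it, and of those of EAE 2 1 of 7 did both ways. Lymphocyte-gated cells gave 0 of 31 (EAE 1) and 0 of 18 (EAE 2) both ways. At 1000 UMIs a cell these counts of 0 allow shares of cells with a UMI of up to 3.45%, 9.68% and 16.7%, which limit detection at that depth and not expression.

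Some markers of mural cells differed in the same direction and others did not. The pericyte list of 5 genes summed to 27.8, 31.2 and 45.0 CPM in fibroblast-gated Healthy cells and to 45.1 and 40.8 in EAE, with 4 or 5 of 5 genes detected, which overlap. Within it Rgs5 was 1.03, 2.53 and 1.34 in Healthy and 14.4 and 11.8 in EAE. Higd1b, at 0, 0.844 and 0 in Healthy and 0.942 and 1.47 in EAE, lay the same way. Kcnj8 did not, at 13.4, 4.22 and 10.7 in Healthy and 6.24 and 5.00 in EAE, and Abcc9 and Cspg4 also overlapped. The smooth muscle list of 6 genes summed to 38.1, 22.8 and 33.6 in Healthy and to 162 and 193 in EAE, mostly Acta2 (99.1 and 129 in EAE) and Des (59.2 and 62.0). Myh11, a defining marker, was 1.03, 0.844 and 1.34 in Healthy and 0.942 and 0 in EAE. Lmod1 was 4.12, 1.69 and 2.02 in Healthy and 1.29 and 0.883 in EAE, below every Healthy library. Cnn1 and Pln overlapped between the groups. The endothelial list of 6 genes summed to 87.5, 70.1 and 105 in Healthy and to 162 and 184 in EAE, and its part in the difference was not tested. Among the 605, 319, 271, 948 and 687 fibroblast-gated cells with no UMI of either list, Ndufa4l2 still passed (1.73, adjusted p = 0.000769). With cycling, scar-type and acute phase cells left out it also passed (1.46, adjusted p = 0.00130). These sums cannot tell a higher level per cell from more cells with the transcript.

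Cox7a1, the heart and muscle isoform, was 22.7, 11.8 and 26.2 across the Healthy libraries, 7.18 in EAE 1 and 5.00 in EAE 2 (-1.82 ± 0.37 (SE), adjusted p = 0.00392), so both EAE libraries lay below every Healthy library. Its share of Cox7a1, Cox7a2 and Cox7a2l together was 3.14%, 1.62% and 3.43% in Healthy and 0.827% and 0.602% in EAE. The counterparts Cox7a2 (0.01 ± 0.19 (SE)) and Cox7a2l (0.25 ± 0.19 (SE)) did not pass. The Cox7a1 call rests on 22, 14, 39, 61 and 34 UMIs and was lost without Healthy 3 (-1.33, adjusted p = 0.109), without EAE 2 (-1.32, adjusted p = 0.0747) and among cells with no mural marker UMI (-1.36, adjusted p = 0.0549). Cox6c, the most abundant member, was 1362, 1482 and 2018 across the Healthy libraries, 1097 in EAE 1 and 1125 in EAE 2 (-0.67 ± 0.18 (SE), adjusted p = 0.0169); Healthy 3 stood highest and both EAE libraries were below every Healthy library. Its difference was -0.37 in the batch of Healthy 1, Healthy 2 and EAE 1 and -0.84 in the other, and the call was lost without Healthy 3, EAE 1 or EAE 2 and without the batch term. Cox5a, a matrix-side subunit, was 120.5, 122 and 117 across the Healthy libraries, 215 in EAE 1 and 176 in EAE 2 (0.63 ± 0.20 (SE), adjusted p = 0.0373). Cox5b, another, was 260.5, 235 and 263 across the Healthy libraries, 409 in EAE 1 and 362 in EAE 2 (0.52 ± 0.19 (SE), adjusted p = 0.0782). Both genes were higher in each EAE library than in any Healthy library, but Cox5b did not pass, and Cox5a lost its call under 10 of 18 alternatives. Cox4i1, the common form of subunit 4, was 730.0, 729 and 758 across the Healthy libraries, 1010.0 in EAE 1 and 1051 in EAE 2, above all Healthy values in both EAE libraries but without a call (0.37 ± 0.17 (SE), adjusted p = 0.143). The remaining isoform pairs gave no call: Cox6a1 (-0.10 ± 0.19 (SE)), Cox6b1 (0.40 ± 0.19 (SE)), Cox6b2 (0.02 ± 0.23 (SE)) and Cox8a (0.08 ± 0.17 (SE)), with Cox6a2 and Cox8b too low to test.

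Complex V had 14 of 15 estimates above 0 and a median of 0.16, with 1 call, Atp5g2. On the tables as deposited its shares overlapped, at 0.570%, 0.556% and 0.498% in Healthy and 0.648% and 0.569% in EAE. The signs therefore do not establish a rise of the complex as a whole. Atp5g2 was 294, 229.6 and 330.5 across the Healthy libraries, 529.8 in EAE 1 and 542 in EAE 2, with no overlap (0.79 ± 0.20 (SE), adjusted p = 0.0128). Atp5g1, which encodes the same c subunit, was 262, 225 and 267 across the Healthy libraries, 319.6 in EAE 1 and 281 in EAE 2 (0.16 ± 0.20 (SE), adjusted p = 0.623). Atp5g3, the third gene for it, was 182, 136 and 175 across the Healthy libraries, 284 in EAE 1 and 203 in EAE 2 (0.48 ± 0.22 (SE), adjusted p = 0.143). For all 3 genes both EAE values were above the Healthy values, with a call for Atp5g2 alone. Atp5g2 took 39.9%, 38.9% and 42.8% of the UMIs of the 3 genes in Healthy and 46.7% and 52.9% in EAE, and Atp5g1 35.4%, 38.1% and 34.5% in Healthy and 28.2% and 27.4% in EAE. The 10 subunits of the membrane part and stalk (Fo) all had estimates above 0, and so had 4 of the 5 F1 subunits, which form the catalytic head. Of the F1 subunits, Atp5a1 (0.02 ± 0.19 (SE)), Atp5b (0.02 ± 0.19 (SE)), Atp5c1 (0.06 ± 0.20 (SE)) and Atp5d (-0.04 ± 0.20 (SE)) did not pass and overlapped between groups. The F1 subunit Atp5e was 508, 503 and 480.3 across the Healthy libraries, 749 in EAE 1 and 692 in EAE 2, with no overlap and no call (0.45 ± 0.18 (SE), adjusted p = 0.0891). The Atp5g2 call was lost under 6 of 18 alternatives, the deposited barcodes (0.53, adjusted p = 0.0515) and each of Healthy 3, EAE 1 and EAE 2 left out among them. Among the 9 assembly and associated genes, Atp5s alone passed, at 13.4, 12.7 and 10.7 across the Healthy libraries, 5.77 in EAE 1 and 6.18 in EAE 2 (-1.11 ± 0.35 (SE), adjusted p = 0.0421), and it lost its call under 13 of 18 alternatives.

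**Figure D5:**
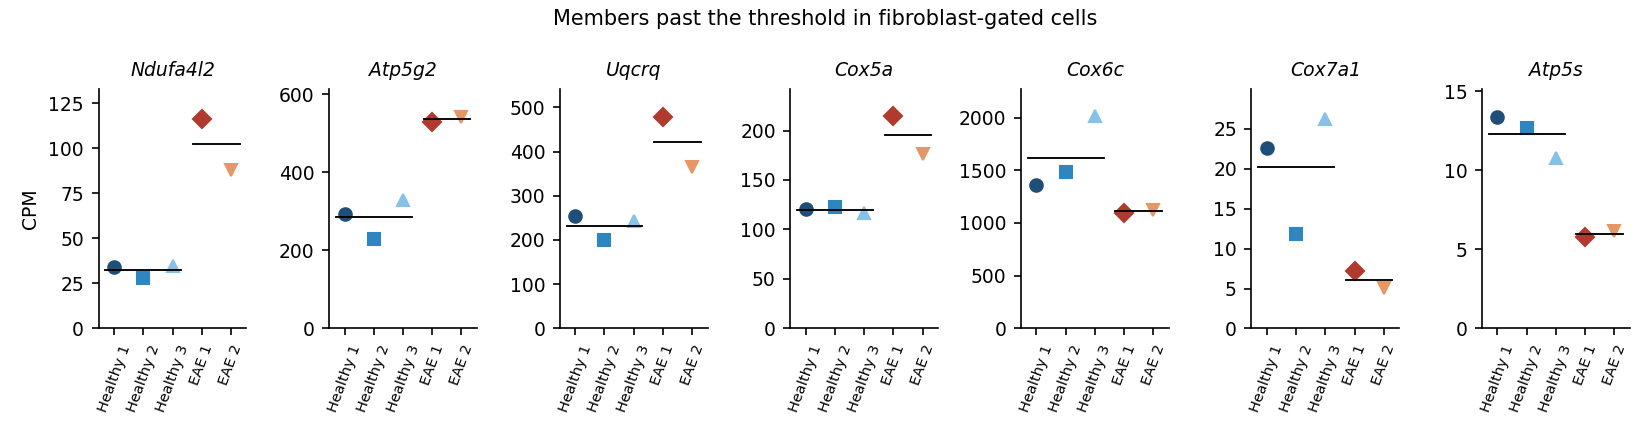
CPM (y axis) in fibroblast-gated cells of each library (x axis) for the 7 members that passed between EAE and Healthy; points are libraries and black lines are group means (Healthy n = 3, EAE n = 2). In each panel the 2 EAE points lie on the same side of all 3 Healthy points; Healthy 3 is the highest Cox6c point at 2018.

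Genes of neighbouring pathways give the setting in the same fibroblast-gated cells. Of 17 glycolysis genes 3 rose, Eno1, Gapdh and the lactate exporter Slc16a3 (1.56 ± 0.29 (SE), adjusted p = 0.00201), and Ldhb fell (-0.74 ± 0.21 (SE)). Slc16a3 was 10.3, 10.1 and 9.40 (Healthy) against 37.7 and 23.3 (EAE) CPM. Of 9 regulators of mitochondrial genes or oxygen response, 8 were tested and Hif1a rose (1.84 ± 0.22 (SE), adjusted p = 7.97e-05), at 46.3, 34.6 and 42.3 (Healthy) against 172 and 139 (EAE) CPM. Hif1a encodes the oxygen-regulated subunit of hypoxia-inducible factor, for which Ndufa4l2 and Cox4i2 are known target genes. Cox4i2 was too low to test between EAE and Healthy, and a part of Hif1a in the Ndufa4l2 difference was not tested. The other electron entry, complex II, had 1 of 4 genes lower, Sdha (-0.62 ± 0.20 (SE)), and the assembly factors of complex IV outside the list had 1 of 11 lower, Surf1 (-0.71 ± 0.22 (SE)). Among 13 subunits encoded by mitochondrial DNA, mt-Co1 rose (0.45 ± 0.14 (SE)) and the rest did not pass. None of 11 citrate cycle genes passed.

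Whether the EAE difference itself differed between mural cells (smooth muscle-gated and pericyte-gated pooled, 20 to 59 cells a library) and fibroblasts was tested by an interaction. Of 8486 genes, 0.955% passed higher and 1.08% lower, and 0 of 81 members passed in either direction with edgeR; 1 did at an unadjusted p under 0.05 and 0 with DESeq2. On simulated data this fit recovered 0% of 91 genes changed by 1 on the log2 scale and 13.04% of 92 changed by 2. The absence of calls therefore cannot show that the EAE effects were alike in mural cells and fibroblasts. For Ndufa4l2 the mural minus fibroblast difference of EAE effects was -0.17 ± 0.42 (SE), adjusted p = 0.956, and for Ndufa4 -0.84 ± 0.43 (SE), adjusted p = 0.478. Pericyte-gated cells were 2, 7 and 5 of 36, 37 and 20 mural cells in Healthy and 22 and 25 of 59 and 35 in EAE, so the mix of the pool differed between states. With smooth muscle-gated cells alone 0 members passed as well.

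Within the fibroblast-gated cells of EAE, 3 subsets were compared with the remaining fibroblasts of the same library: cycling (41 and 8 cells), scar-type, gated by Tnc, Cxcl9 and Col7a1 (147 and 61), and acute phase, gated by Lcn2 and Saa3 (587 and 180). Scar-type cells had the most calls. Of 9554 genes 8.35% passed higher and 7.57% lower there; of 82 members 14 passed higher and 1 lower, with a median of 0.23 against 0.00 over all genes, and DESeq2 called 5 higher and 1 lower. Ndufa4l2 was 238 and 128 CPM in scar-type cells of EAE 1 and EAE 2 and 105 and 84.1 in the other fibroblasts (1.02 ± 0.16 (SE), adjusted p = 8.44e-06). Atp5g1 was 441 and 573 against 289.6 and 249 (0.98 ± 0.16 (SE), adjusted p = 1.36e-05). Cox6b2 was 12.0 and 7.81 against 68.8 and 41.0 (-2.35 ± 0.34 (SE), adjusted p = 1.97e-06), or 12 of 601 and 5 of 389 UMIs of the Cox6b1 and Cox6b2 pair. Scar-type cells thus lay above the other fibroblasts of their library for the first pair of genes and below for Cox6b2, in 2 of 2 libraries. These 3 calls held under all 7 alternatives.

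The other 12 calls in scar-type cells were smaller, from 0.44 to 0.62. They fell in complex I (3, Ndufs4 and Ndufb6 among them), complex III (Uqcrq), complex IV (Cox7a2, Cox5a, Cox7c, Cox5b and Cox6a1) and complex V (Atp5o, Atp5g3 and Atp5b). Scar-type cells were deeper, with median UMIs of 6503 and 9220 against 3960.5 and 5002.5, and among cells of 4000 to 12000 UMIs 2 members passed higher (Ndufa4l2 and Atp5g1) and 1 lower (Cox6b2). In the same comparison 11 of 17 glycolysis genes passed higher, Slc16a3 foremost (1.80 ± 0.23 (SE)), with cytochrome c, Cycs (0.98 ± 0.15 (SE)), and Hif1a (0.60 ± 0.18 (SE)). Cycling cells gave 6 members higher and 1 lower (7.24% and 5.95% of all genes): the complex I subunit Ndufc1 (0.77 ± 0.18 (SE)), Uqcr10 of complex III (0.64 ± 0.18 (SE)), Atp5g1 (0.62 ± 0.19 (SE)), Atp5g3 (0.59 ± 0.19 (SE)), Cox7a2 (0.58 ± 0.17 (SE)) and Cox7c (0.51 ± 0.16 (SE)) higher and Ndufa6 (-0.59 ± 0.19 (SE)) lower, with adjusted p from 0.00259 to 0.0339. With 49 cells in all, none of the 7 calls survived every alternative. Cycling cells too were deeper, with median UMIs of 9469 and 8972.5 against 3960.5 and 5002.5. Among cells of 4000 to 12000 UMIs 3 members passed higher, and 2 of the 7 calls were made again. Acute phase cells gave 0 members in either direction (1.08% and 0.523% of all genes) with edgeR, 2 at an unadjusted p under 0.05 and 0 with DESeq2. For these cells Ndufa4l2 stood at -0.01 ± 0.16 (SE), adjusted p = 0.999. All 3 comparisons share the same other fibroblasts.

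Melanocyte-gated cells were found in EAE 1 alone, and myeloid- and lymphocyte-gated cells almost only in EAE libraries (1 myeloid-gated cell each in Healthy 1 and Healthy 2), so their levels are described against the fibroblast-gated cells of the same library with no test, and Poisson intervals cover counting error only. The melanocyte-gated cells of EAE 1 had the members at high levels across every complex. Of 82 members with at least 4 UMIs in both classes, 41 were at least 2-fold higher (24.4% of all genes were), with a median ratio of 2.00 against 1.19 over all genes. Ndufa4 was 2127 (Poisson interval 2019.9 to 2238) against 376 CPM in fibroblast-gated cells, a ratio of 5.65. Cox7b, a small complex IV subunit, had the highest ratio, 6.06, and Ndufa4l2 the lowest, 0.0742 from 6 UMIs. Median ratios were 1.96 for complex I, 2.37 for complex III, 2.25 for complex IV and 1.95 for complex V. Median UMIs per melanocyte-gated cell were 14750.5, against 4665 per fibroblast-gated cell of that library, and the part of depth was not tested.

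Myeloid-gated cells of EAE 1 (87 cells) had 6 of 81 members at least 2-fold higher (22.5% of all genes), and the 7 cells of EAE 2 had 1 of 64 (31.2%). Cox5a was 665 (Poisson interval 579 to 761) against 215 CPM in fibroblast-gated cells of EAE 1, and 231 (Poisson interval 106 to 438) against 176 in EAE 2, from 9 UMIs. Uqcrfs1, the Rieske protein, was 206 (Poisson interval 159 to 262) against 81.6 in EAE 1 and 154 (Poisson interval 56.5 to 335) against 86.4 in EAE 2, from 6 UMIs. The ratio of both genes was smaller in EAE 2, whose intervals include the fibroblast-gated level. The heart and muscle isoform Cox6a2 made up 5.94% (12 of 202 UMIs, interval 3.11 to 10.1%) of the Cox6a1 and Cox6a2 pair in myeloid-gated cells of EAE 1 and 0.122% (5 of 4095 UMIs, interval 0.0397 to 0.285%) in fibroblast-gated cells. In EAE 2 these shares were 5.00% (1 of 20 UMIs, interval 0.127 to 24.9%) and 0.182% (5 of 2754 UMIs, interval 0.0590 to 0.423%); the difference was not tested. Lymphocyte-gated cells had 6 of 73 members at least 2-fold higher in EAE 1 (37.5% of all genes) and 2 of 61 in EAE 2 (38.1%).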

How the data were processed

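Droplet single-cell RNA-seq of GFP-sorted spinal cord cells was deposited as 5 count tables (genes by barcodes, UMIs), which the authors made with Cell Ranger 2.1.1 and Seurat 3 on the mm10 build, per the submitters' processing notes; the values are whole numbers, not normalized. Each barcode shared among Healthy 1, Healthy 2 and EAE 1 was kept where its UMI total was highest. Cells were kept from 200 detected genes up and to 10% mitochondrial UMIs, and were gated by UMIs of marker lists (at least 3 UMIs and 0.2%, 0.4% for fibroblasts and 0.1% for fibroblast subsets, of a cell's UMIs). Of the lymphocyte list 7 of 9 genes were used here. For each class the counts of a library were added up (minimum 10 cells, 5 for subsets) and tested with edgeR 4.0.16 (R 4.3.3, limma 3.58.1): TMM scaling, low-count filter, robust quasi-likelihood F test, two-sided, Benjamini-Hochberg adjusted over all genes tested. The state fit had batch as a term, and the class and subset fits had library. The class and subset fits each estimated a gene's spread from all their sums together, so each contrast borrows spread from classes or subsets outside it. SE is the log2 difference divided by the square root of F. DESeq2 1.42.0 was an alternative, as were other scaling, filters, gates and depth ranges, the tables as deposited, and each library left out. With 3 and 2 libraries, residual degrees of freedom were 2 (state), 5 (class), 3 (interaction) and 3 (subsets). The fits were tested on simulated data, where the cycling contrast recovered 9.18% of genes changed by 1 on the log2 scale and 37.9% of those changed by 2. The smooth muscle, scar-type and acute phase contrasts were not simulated. Named members were those past adjusted p 0.05, up to 10 of largest change in each direction, the isoform pairs and the core subunits; Ndufs7, Ndufb4 and Ndufb5, the members of complex I outside this rule, were chosen after their values were seen, like those named by highest or lowest UMI total or ratio. The single values of 1 member are not reported here. The members and lists were chosen with earlier results of these data known. Depth was 971281 to 8498831 UMIs per fibroblast-gated sum. Myeloid against fibroblast was not tested, since only EAE 1 held 10 myeloid-gated cells. Figures were drawn with matplotlib 3.10.9.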

Additional observations from a re-analysis of the deposited data

How the results depend on the processing

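No paired analysis was possible because the groups share fewer than 2 replicate numbers: the first EAE library carries none in its label. No member that passed a test reversed its direction under an alternative. With library totals the median of all genes moved from 0.00 to 0.10 (EAE minus Healthy), from -0.07 to 0.17 (pericyte minus fibroblast) and from -0.13 to 0.00 (smooth muscle minus fibroblast), and that of the members from 0.03 to 0.13, from -0.02 to 0.24 and from 0.39 to 0.53. The members' EAE minus Healthy median turned below 0 on the deposited barcodes (-0.03), without EAE 1 (-0.04), without mural marker UMIs (-0.04), without the 3 subsets (-0.01) and in cells of 2000 to 8000 UMIs (-0.06), so it holds no direction; the pericyte minus fibroblast median lay between -0.29 (without EAE 2) and 0.24. Between EAE and Healthy, the count of members higher (4) became 1 on the deposited barcodes, 1 without mural marker UMIs, 2 without the 3 subsets, 1 in cells of 2000 to 8000 UMIs, and 0 (without EAE 1) to 6 (without Healthy 1) with each library left out; the count lower (3) became 1 without mural marker UMIs and 0 to 3 with a library left out. Of the 7 calls, 1 was kept without each of Healthy 3, EAE 1 and EAE 2, 3 on the deposited barcodes and 5 with DESeq2. Smooth muscle-gated against fibroblast-gated cells, members higher (11) became 26 with library totals, 2 without a low-count filter, 2 at up to 5% mitochondrial UMIs, 7 with 20 cells a sum and 5 to 7 with a library left out; members lower (1) became 0 without ribosomal and mitochondrial genes, 4 without the filter, 0 on the deposited barcodes, 0 at up to 5% mitochondrial UMIs and 1 to 2 with a library left out. Pericyte-gated against fibroblast-gated cells, members lower (1) became 2 on the deposited barcodes. Pericyte-gated against smooth muscle-gated cells, members higher (0) became 1 with library totals and 1 on the deposited barcodes, and members lower (1) became 3 on the deposited barcodes, 2 at a doubled marker share and 1 to 2 with a library left out. Cycling cells had 2 higher without the filter, 1 with doubled subset markers and 3 at 4000 to 12000 UMIs, and 0 lower with DESeq2 and 2 with doubled markers. Scar-type cells had 5 higher with DESeq2, 9 without the filter and 2 at 4000 to 12000 UMIs, and 3 lower with library totals and 2 with doubled markers. The causes were not tested. Alternatives that used cells without mural UMIs, without subsets or in a depth range, and smooth muscle-gated in place of all mural cells, were chosen after seeing the data. A fit that leaves 1 EAE library assumes that it varies like the others; subset fits were not run with a library left out. Small classes limit the depth: 10 to 37 smooth muscle-gated and 22 and 25 pericyte-gated cells a library.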
